A study of Danio rerio with 4 samples.

Results

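Keratin and claudin genes, which build the filaments and the tight junctions of epithelia, were followed in whole zebrafish embryos of wild type and of a line labelled as an npas4l knockout. The deposited table was searched for rows whose gene symbol begins with krt, cyt1 or cldn. This gave 48 of 24235 genes. Of these, 18 are keratins and 27 are claudins. The remaining 3 are cldnd1a and cldnd1b, which encode claudin domain-containing proteins, and krtcap2, which encodes a keratinocyte-associated protein that is not itself a keratin. Total RNA was sequenced in 4 libraries from embryos at the 6-somite stage, with 2 libraries of wild-type AB embryos and 2 libraries of embryos homozygous for the npas4l bns297 allele. Both groups were raised in the same medium at the same temperature, and no treatment is named. The RNA of npas4l itself was not analysed here, so it gave no check of the labels. npas4l encodes a bHLH-PAS transcription factor at the head of the endothelial and blood programme, and the study set out to find the genes downstream of it. The number of embryos and clutches behind a library is not given in the labels. The p-values therefore rest only on spread from library to library, some of which may be technical. In the limma fits, that spread was taken mostly from genes of similar value and less from the gene itself.

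Keratins are the intermediate filament proteins of epithelial cells. A type I and a type II keratin pair to form each filament, so the RNAs of both types are needed together. In the early zebrafish embryo they are abundant in the enveloping layer, the outermost cell sheet that becomes the periderm, and in the epidermis beneath it. Claudins are membrane proteins with a pair of extracellular loops that meet across neighbouring cells and set which ions pass a tight junction. Each epithelium uses its own set of claudins, so the family also reports on tissues other than skin. npas4l acts in mesoderm, and no role of it in surface epithelia is assumed here.

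Values below are the authors' normalised values, whole numbers obtained by scaling the gene counts of each library and rounding. They summed to between 7272902 and 8237748 per library. Mutant replicate 2 differed from the rest in how its values depended on level, and it had 299 genes at 0 where the other libraries had 2444 to 3000. Relative to the wild-type mean of log2(value + 1), its median gene stood at 0.77 where the mean over the 4 libraries was 10 to under 20, at -0.13 where it was 200 to under 500, and at -0.20 where it was 5000 or more. Mutant replicate 1 stood between -0.01 and 0.04 in every value class. Named genes below are therefore given by library or as a range, while fold changes pool both mutant libraries unless stated. Transcript lengths were not used here, so values are compared between libraries for the same gene and not between genes as levels of RNA molecules.

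No keratin and no claudin passed the test. The groups were set against each other with limma-trend over 16653 genes whose mean over the 4 libraries reached 10, with Benjamini-Hochberg adjustment over all of them. The filter passed 15 of 18 keratins and 12 of 27 claudins, and 0 of either family had an adjusted p under 0.05. Over all genes tested, 0.048% passed. limma-voom also called 0 in both families. At an unadjusted p under 0.05 there were 0 keratins and 2 claudins, cldni and cldn7b, both lower in mutants, against 3.75% of all genes. The median log2 fold change was -0.10 over the tested keratins and -0.18 over the tested claudins, against -0.02 over all genes tested. In mutant replicates 1 and 2 apart, the median distance from the wild-type mean was 0.05 and -0.25 over the keratins. It was -0.04 and -0.18 over the claudins, and 0.01 and -0.04 over all genes tested. The median fold change of all genes was -0.08 at a mean of 500 to under 1000, where the median keratin lay. It was -0.04 at 100 to under 200, where the median claudin lay. The groups did not overlap in 4 tested keratins, 2 lower and 2 higher in mutants, and in 3 tested claudins, all lower. The 2 higher keratins, krt15 and krt94, had wild-type means of 1 and 9.5, so only their mutant values brought them past the filter of 10. Over all genes tested, mutants were lower without overlap in 16.1% and higher without overlap in 13.3%. A p that misses the threshold does not show that values did not differ, and the standard errors of these log2 fold changes had a median of 0.17 for the tested keratins and 0.20 for the tested claudins.

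**Figure D1:**
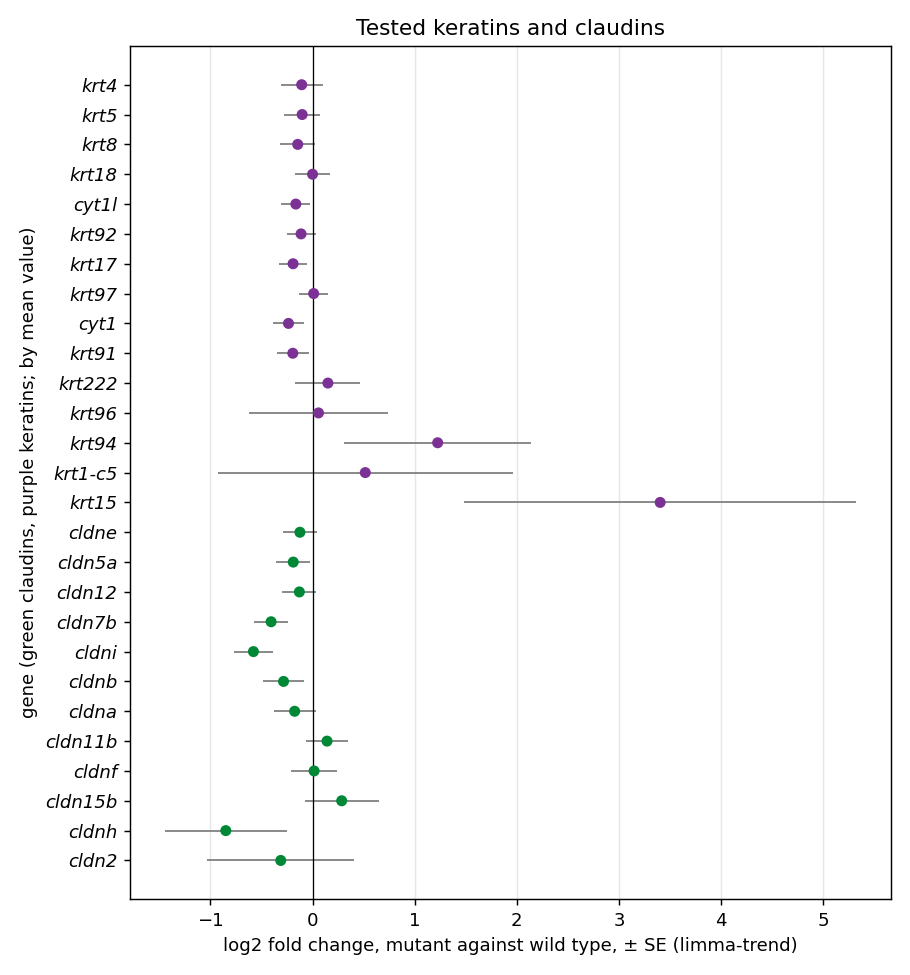
Each point is the log2 fold change of a tested keratin (purple) or claudin (green) in mutants against wild type, with bars of 1 standard error from limma-trend, ordered by mean value within each family. The well-expressed keratins lie between -0.24 and 0.01, cldni and cldn7b lie at -0.58 and -0.41, and krt15 and krt94, which have low values, lie furthest to the right with wide bars.

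The type II keratins krt4, krt5 and krt8 held most keratin reads. krt4 (ENSDARG00000017624, chromosome 6, 39310962 to 39315491, minus strand, GRCz10), a keratin of the enveloping layer and periderm, stood at 29600 (replicate 1) and 29298 (replicate 2) in the wild-type libraries against 29498 and 25349 in the mutant libraries. Mutant replicate 1 lay between the wild-type libraries, and mutant replicate 2 lay below all 3 others. Its log2 fold change was -0.11 ± 0.21 (SE).

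krt5, a keratin of the epidermis, stood at 15723 and 16016 in the wild-type libraries against 16390 and 13332 in the mutant libraries, which gave a log2 fold change of -0.10 ± 0.18. krt8, the type II keratin of simple epithelia, stood at 14255 and 14175 in the wild-type libraries against 14346 and 11510 in the mutant libraries, which gave a log2 fold change of -0.15 ± 0.17. In both genes mutant replicate 1 was the highest library and mutant replicate 2 the lowest, so the mutant libraries bracketed the wild type.

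krt18, the type I partner of krt8, stood at 11707 and 12564 in the wild-type libraries against 13185 and 11149 in the mutant libraries, which gave a log2 fold change of -0.0004 ± 0.17. krt5, krt8 and krt18 lie on chromosome 23 between 10238226 and 10416784. These 3 genes with krt4 and cyt1l carried between 90.5% and 90.9% of the summed keratin values in each library, so the make-up of the family by reads was close to the same in all 4. krt4 alone took 34.7% to 35.9%.

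The ratio of a type II to a type I keratin within a library does not depend on how that library was scaled, so the pairing was also read as a ratio, chosen after the values were seen. krt8 over krt18 was 1.22 and 1.13 in the wild-type libraries against 1.09 and 1.03 in the mutant libraries. Both mutant libraries lay below both wild-type libraries, while the wild-type libraries differed from each other by more than the gap between the groups. krt4 over krt18 was 2.53 and 2.33 in the wild-type libraries against 2.24 and 2.27 in the mutant libraries, and krt5 over krt18 was 1.34 and 1.27 in the wild-type libraries against 1.24 and 1.20 in the mutant libraries. These ratios share krt18, so they are not separate observations. Within type II, krt5 over krt8 was 1.10 and 1.13 in the wild-type libraries against 1.14 and 1.16 in the mutant libraries, so both mutant libraries lay above the wild type there. The ratio krt4 over krt8 was 2.08 and 2.07 in the wild-type libraries against 2.06 and 2.20 in the mutant libraries, and there the mutant libraries lay on either side of the wild type. An exact permutation test of 2 against 2 libraries has 6 arrangements and cannot go below a two-sided p of 0.333, which is what krt8, krt5 and krt4 over krt18 and krt5 over krt8 each gave.

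**Figure D2:**
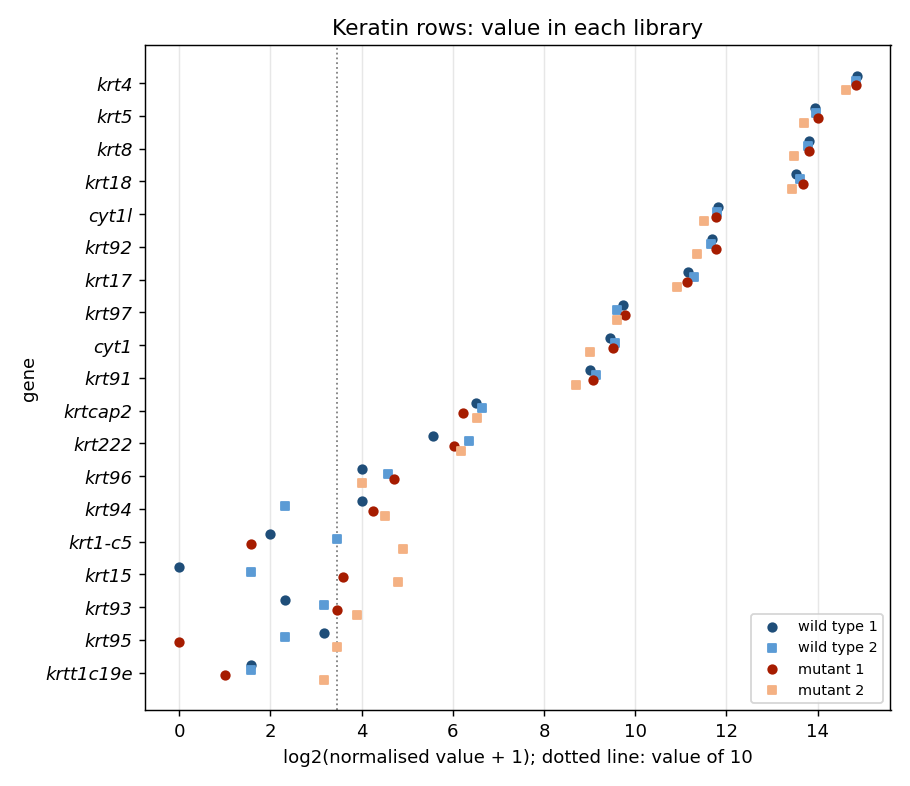
Each row is a keratin gene or krtcap2, and each point is its log2(normalised value + 1) in 1 of the 4 libraries, with the value of 10 as a dotted line. In the 10 keratins of highest value the 4 libraries nearly coincide and mutant replicate 2 is the lowest, while the low-value keratins scatter and krt15 ranges from 0 to 27.

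On chromosome 19, 6 keratin rows lie in 1 cluster, and it holds the genes named as cytokeratins of the enveloping layer. cyt1l, the cyt1-like gene of that layer (5439935 to 5452965, minus strand), stood at 3614 and 3562 in the wild-type libraries against 3518 and 2914 in the mutant libraries. Both mutant libraries were lower than both wild-type libraries, by a small margin in mutant replicate 1, and the log2 fold change was -0.16 ± 0.14. krt17, a type I keratin (5450844 to 5456086, minus strand), stood at 2294 and 2483 in the wild-type libraries against 2256 and 1937 in the mutant libraries, which gave a log2 fold change of -0.19 ± 0.14, again with mutants lower without overlap. cyt1, the type I cytokeratin of the enveloping layer, stood at 694 and 746 in the wild-type libraries against 727 and 513 in the mutant libraries, which gave a log2 fold change of -0.24 ± 0.15.

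A second row with the symbol krt17 (ENSDARG00000036830) carries the current symbol krt91 and is called krt91 here. It stood at 516 and 565 in the wild-type libraries against 538 and 414 in the mutant libraries, which gave a log2 fold change of -0.19 ± 0.16. krt92 stood at 3264 and 3251 in the wild-type libraries against 3494 and 2597 in the mutant libraries, with mutant replicate 1 the highest library and mutant replicate 2 the lowest. The cluster took 0.130% and 0.131% of the summed values in wild type and 0.128% and 0.115% in mutants. Spans of krt92, cyt1l, cyt1, krt17 and krt91 overlap in a chain on the same strand in the table, and their proteins are close relatives, so how reads were divided among them is uncertain. krtt1c19e, at the edge of the cluster, held 1 to 8 in every library and fell below the filter of the main fit.

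On chromosome 22, krt97 stood at 852 and 778 in the wild-type libraries against 871 and 772 in the mutant libraries, which gave a log2 fold change of 0.01 ± 0.14, with each group holding a higher and a lower library. krt96, whose span overlaps krt97 on the same strand, held 15 to 25 in every library, and krt222, on the opposite strand of the same cluster, held 46 to 81. Neither separated the groups.

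The keratins that were higher in both mutant libraries had low values and lay together on chromosome 11. krt15, a type I keratin of basal epidermal cells in mammals (11532157 to 11534848, minus strand), stood at 0 and 2 in the wild-type libraries against 11 and 27 in the mutant libraries. krt94 stood at 15 and 4 in the wild-type libraries against 18 and 22 in the mutant libraries. krt93 stood at 4 and 8 in the wild-type libraries against 10 and 14 in the mutant libraries, and its mean fell below the filter. The log2 fold changes were 3.40 ± 1.92 for krt15, with an unadjusted p of 0.079 and a limma adjusted p of 1, and 1.22 ± 0.91 for krt94. With a pseudocount of 10 in place of 1 the krt15 value was 1.35. krt15 met the filter of 10 exactly, through its mutant libraries alone, so it had to differ to be tested. krt94 also passed the filter through its mutant libraries, with a mean of 9.5 in wild type and 20 in mutants.

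Summed over the cluster, krt93, krt94 and krt15 held 19 and 14 in the wild-type libraries against 39 and 63 in the mutant libraries. Genes of this level had raised values in mutant replicate 2 at large, and its part in this difference was not tested. The sum in mutant replicate 1, 39, was also above both wild-type libraries. It is made of values near the filter, with krt15 at 11 against 0 and 2 in wild type. krt94 was at 18 against 15 and 4, and krt93 at 10 against 4 and 8. krt15 and krt94 passed the filter through their mutant values, so the sum is no separate support for a difference. In the same stretch of chromosome 11, zgc:110712, whose description calls it a keratin and whose current symbol is krt99, lay outside the search by symbol. It stood at 3460 and 3600 in the wild-type libraries against 3763 and 3328 in the mutant libraries, which gave a log2 fold change of 0.004. Of the 4 other keratin rows outside that search, whose symbols are in capitals, KRT86, on chromosome 8, stood at 397 and 356 in the wild-type libraries against 307 and 261 in the mutant libraries, with a log2 fold change of -0.41 and an unadjusted p of 0.018. A KRT18 row on chromosome 9 stood at 154 and 152 in the wild-type libraries against 128 and 103 in the mutant libraries, with a log2 fold change of -0.41. Both were lower in the mutants without overlap, neither passed the test, and they were singled out after their values were seen. krt1-c5, on chromosome 5, stood at 3 and 10 in the wild-type libraries against 2 and 29 in the mutant libraries, and only mutant replicate 2 brought it past the filter. krt95 held 0 to 10.

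Among the claudins, cldni and cldn7b had the smallest unadjusted p-values, and both were lower in each mutant library. cldni (ENSDARG00000054616, chromosome 3, 30790404 to 30795479, plus strand) stood at 250 and 266 in the wild-type libraries against 189 and 157 in the mutant libraries. Both mutant libraries were well below both wild-type libraries, from 258 ± 11.3 (mean ± SD, n = 2) to 173 ± 22.6. The log2 fold change was -0.58 ± 0.19, with an unadjusted p of 0.00317 and a limma adjusted p of 0.964. Without mutant replicate 2 it was -0.45 and without mutant replicate 1 it was -0.71, and no other gene of the table overlaps cldni.

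cldn7b (ENSDARG00000014047, chromosome 10, 22175316 to 22250266, minus strand), an orthologue of a claudin widespread in mammalian epithelia, stood at 393 and 382 in the wild-type libraries against 278 and 307 in the mutant libraries. Here mutant replicate 1, and not mutant replicate 2, was the lowest library. The log2 fold change was -0.41 ± 0.17, with an unadjusted p of 0.0168 and a limma adjusted p of 1. The span of fgf11b overlaps cldn7b on the same strand, so reads of both genes could be mixed.

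cldn5a, known in zebrafish from the neural tube and the lining of the brain ventricles, stood at 393 and 377 in the wild-type libraries against 312 and 365 in the mutant libraries, which gave a log2 fold change of -0.19 ± 0.16. The groups did not overlap, and the gap between the lower wild-type library and mutant replicate 2 was small. Its vascular paralogue cldn5b, an endothelial gene, was barely detected and fell below the filter of the main fit. It stood at 1 and 6 in the wild-type libraries against 1 and 11 in the mutant libraries. cldn12, a claudin of many tissues in mammals, stood at 346 and 382 in the wild-type libraries against 346 and 319 in the mutant libraries, which gave a log2 fold change of -0.13 ± 0.17. Its annotated span also covers 6 other genes of the table, so its value is uncertain.

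**Figure D3:**
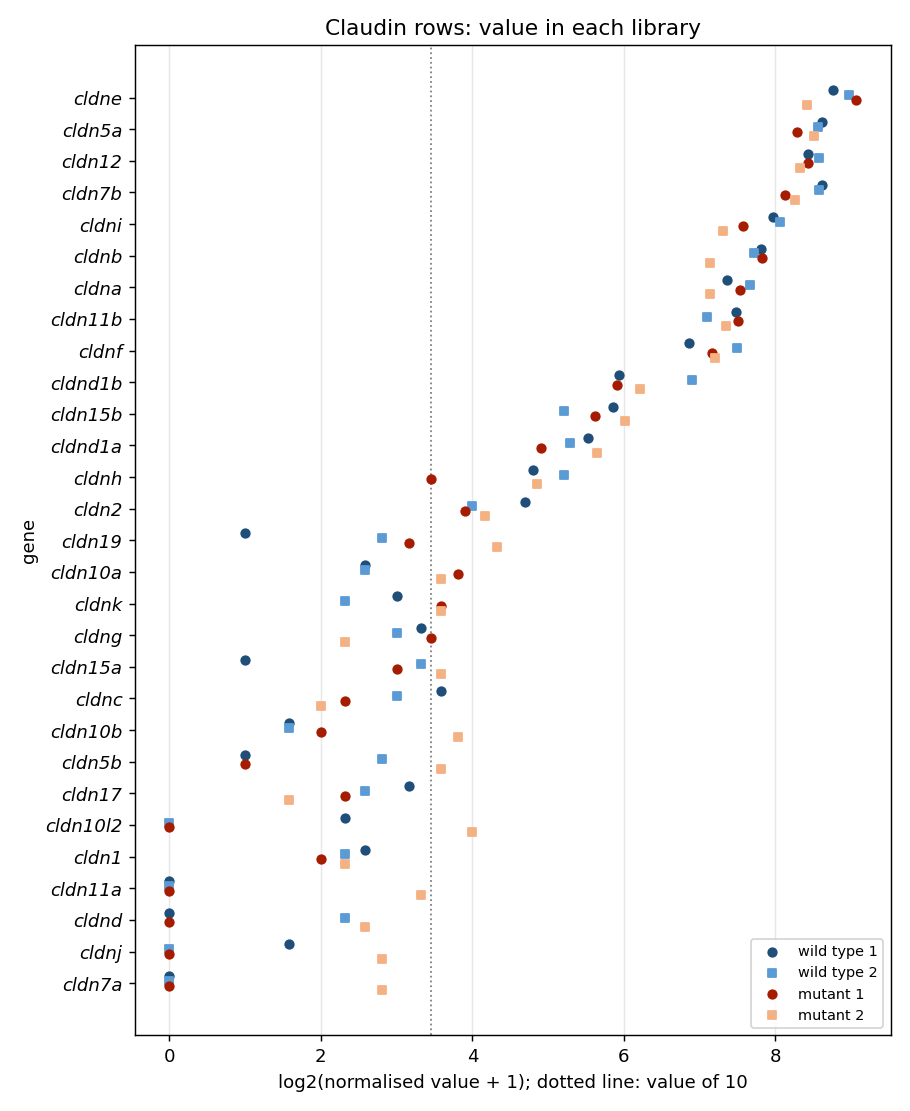
Each row is a claudin or a claudin domain-containing gene, and each point is its log2(normalised value + 1) in 1 of the 4 libraries, with the value of 10 as a dotted line. cldni and cldn7b show both mutant libraries below both wild-type libraries, and most genes left of the line have their highest value in mutant replicate 2.

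The claudin cluster on chromosome 15 holds cldnj, cldne, cldnf and cldna. cldne, known from the enveloping layer of the zebrafish gastrula, stood at 434 and 502 in the wild-type libraries against 536 and 342 in the mutant libraries, which gave a log2 fold change of -0.12 ± 0.16. The mutant libraries lay on either side of the wild type, at the highest and the lowest value. cldnf stood at 115 and 179 in the wild-type libraries against 143 and 147 in the mutant libraries, and cldna at 163 and 203 in the wild-type libraries against 185 and 140 in the mutant libraries. In cldnf both mutant libraries lay between the wild-type libraries. cldnj, needed for otoliths of the zebrafish ear, held 0 to 6.

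The cluster on chromosome 21 holds cldnh, cldnc, cldnb and cldnd. cldnb, expressed in the epidermis and the lateral line primordium, stood at 224 and 210 in the wild-type libraries against 226 and 140 in the mutant libraries, which gave a log2 fold change of -0.28 ± 0.20. It was low in mutant replicate 2 and highest in mutant replicate 1. cldnh stood at 27 and 36 in the wild-type libraries against 10 and 28 in the mutant libraries, and cldnc at 11 and 7 in the wild-type libraries against 4 and 3 in the mutant libraries. Here the log2 difference of cldnh was -1.55 without mutant replicate 2 and -0.15 without mutant replicate 1, so it rested on mutant replicate 1. Summed, the cluster held 262 and 257 in the wild-type libraries against 240 and 176 in the mutant libraries.

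The other tested claudins did not separate the groups. cldn11b, whose mammalian counterpart seals myelin, stood at 177 and 136 in the wild-type libraries against 181 and 162 in the mutant libraries. cldn15b, of the endoderm in zebrafish, stood at 57 and 36 in the wild-type libraries against 48 and 64 in the mutant libraries. cldn2, whose mammalian counterpart forms cation pores, held 14 to 25. Of the genes that only share a name or a domain, cldnd1b stood at 60 and 118 in the wild-type libraries against 59 and 73 in the mutant libraries, cldnd1a held 29 to 49 and krtcap2 held 74 to 99.

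The 15 claudins below the filter were cldn1, cldn5b, cldn7a, cldn10a, cldn10b, cldn10l2, cldn11a, cldn15a, cldn17, cldn19, cldnc, cldnd, cldng, cldnj and cldnk. Their highest value in any library was 19. cldn10a stood at 5 and 5 in the wild-type libraries against 13 and 11 in the mutant libraries, and cldnk, a gene of myelinating glia in zebrafish, at 7 and 4 in wild type and at 11 in both mutants. Also higher in both mutant libraries were cldn19, at 1 and 6 in wild type against 8 and 19, and cldn10b, at 2 and 2 against 3 and 13. In the other direction, cldn17 stood at 8 and 5 in the wild-type libraries against 4 and 2 in the mutant libraries, and cldnc, given above, was also lower in both. The groups overlapped in the rest of these claudins. The share of all genes below the filter that lay apart in this way was not counted, so no trait of the claudins is read from these values. Mutant replicate 2 had only 299 genes at 0 where the other libraries had 2444 to 3000. Of 16 claudin rows outside the search by symbol, 4 passed the filter, and si:ch211-95j8.2, whose current symbol is cldn23.1, stood at 167 and 127 in the wild-type libraries against 103 and 99 in the mutant libraries, with a log2 fold change of -0.52 ± 0.23 that did not pass the test. It was also singled out after its values were seen. Values below the filter are a few reads and were left out of the main fit. The alternative fit without the filter took in all 27 claudins and called 0. cldn7a and cldn11a were listed at 0 in 3 libraries and at 6 and 9 in mutant replicate 2.

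As a share of all summed values, the keratins took 1.03% of both wild-type libraries and of mutant replicate 1, and 0.972% of mutant replicate 2. Mutant replicate 1, at 1.0313%, lay just below the wild-type libraries, at 1.0346% and 1.0316%. The log2 ratio of the mutant to the wild-type share was -0.04, and without mutant replicate 2 it was -0.0025. The claudins took 0.0333% and 0.0344% in the wild-type libraries against 0.0307% and 0.0319% in the mutant libraries. Both mutant libraries were lower there, with a log2 ratio of -0.11. That sum includes cldni and cldn7b, already picked above by their p-values. cldni stood at 250 and 266 in wild type against 189 and 157 in mutants, and cldn7b at 393 and 382 against 278 and 307. The share without these genes was not computed, so a fall over the claudin family at large is not shown. The exact two-sided permutation p was 0.333 for each sum, the lowest that 2 against 2 libraries allow. In whole embryos, fewer epithelial cells and less RNA per cell cannot be told apart.

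**Figure D4:**
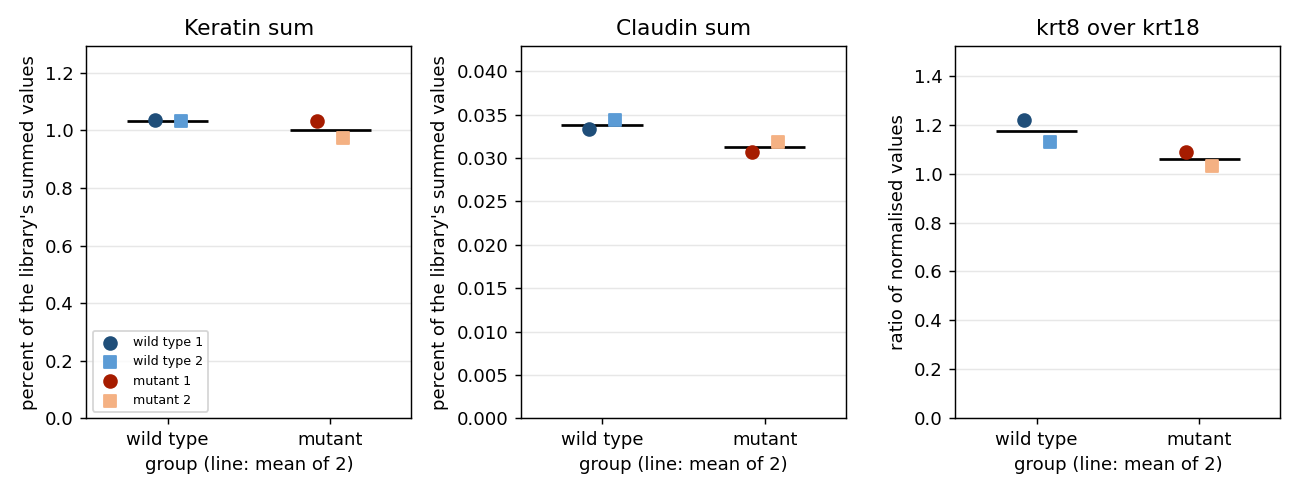
The first and second panels plot the summed keratin and claudin values as a percent of each library's summed values, and the third plots the ratio of krt8 to krt18; points are libraries and lines are means of 2. The keratin share is 0.972% in mutant replicate 2 and 1.03% in each other library, with mutant replicate 1 just below both wild-type libraries. The claudin share and the ratio are also lower in both mutant libraries.

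Because values in mutant replicate 2 differed from the others by level, each member was set beside all tested genes of like value. All 10 keratins whose mean reached 200 were lowest in mutant replicate 2. That was true of 72.5% of all genes with a mean of 500 to under 1000, 90.9% of those from 1000 to under 5000 and 92.7% of those of 5000 or more. These 10 keratins lay at a median of -0.30 from the wild-type mean in mutant replicate 2. Relative to the median gene of like value the difference was -0.11 there, with a range of -0.32 for cyt1 to 0.09 for krt97, and -0.01 in mutant replicate 1.

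krt4 and krt5 lay within 0.06 of the median gene of like value in both mutant libraries, and krt18 lay 0.08 above it in both. krt17 lay at -0.12 from it in both mutant libraries, cyt1l at -0.07 and -0.11, and krt8 at -0.03 and -0.11. cldni lay at -0.45 and -0.58 from its like-value median in mutant replicates 1 and 2. cldn7b lay at -0.48 and -0.21, so both genes stayed below that median in each library. cldnb lay at 0.05 and -0.50. cldni and cldn7b had been picked by their p-values, so these distances are no separate support for them. The spread of genes of like value around the median was not set beside them. For the 9 claudins whose mean reached 100, the median distance from the like-value median was -0.02 in the first mutant library and -0.21 in the second.

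**Figure D5:**
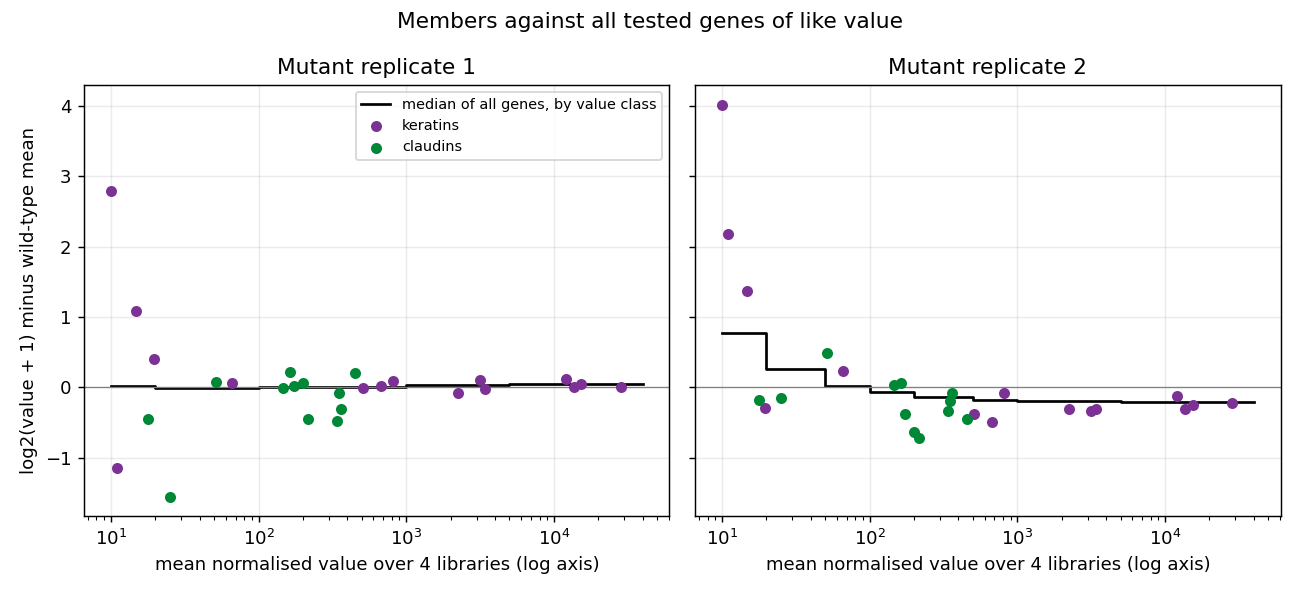
Each point is a tested keratin (purple) or claudin (green), placed by its mean value on a log axis and by its log2(value + 1) minus the wild-type mean, in mutant replicate 1 (left) and mutant replicate 2 (right); the black line is the median of all tested genes in each value class. In mutant replicate 2 the line runs from 0.77 at low values to -0.20 at high values and most abundant keratins lie somewhat below it, cyt1 furthest at -0.32 from it, and in mutant replicate 1 the line stays near 0.

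Leaving out mutant replicate 1, so that mutant replicate 2 stood alone for the mutants, 7 keratins passed as lower, krt4, krt5, krt8, cyt1l, krt92, krt17 and cyt1, with log2 fold changes of -0.49 to -0.22. That fit called 274 genes, 1.68% of all tested, 248 of them lower. It called 59.1% of all genes where the mean reached 5000, the level of krt4, krt5 and krt8, and 15.9% of those where the mean reached 1000, a class that holds 6 of the 7. It called 1.66% of those where the mean was 200 to under 1000, the level of cyt1. Leaving out mutant replicate 2 called 0 keratins, and the median over the tested keratins was then 0.05.

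Genes that work with keratins and claudins, or that share a tissue or a protein family with them, were read from lists. All are called partner genes here, though not all of them work with keratins or claudins. Of 97 tested genes in 6 lists, 0 passed with limma, 0 with limma-voom, and 3 higher and 3 lower had an unadjusted p under 0.05. Over all genes tested, 3.75% had such a p. The median log2 fold change over the 97 partner genes was -0.04. Without overlap, 20 of the 97 were lower and 12 higher in mutants, against 16.1% and 13.3% of all genes tested. By list, 6 lower and 3 higher were tight junction partners, 1 and 1 desmosome and plakin genes, and 6 and 1 epidermal regulators and adhesion genes. The enveloping layer and periderm list had 3 and 3, ionocyte and mucous cell genes 3 and 2, and other intermediate filament genes 1 and 2. Among 22 tested tight junction partners, the scaffolds and transmembrane proteins that anchor or accompany claudins, the median was -0.09. tjp3, which encodes a zonula occludens scaffold that binds claudin tails, stood at 132 and 129 in the wild-type libraries against 207 and 202 in the mutant libraries. Both pairs of libraries were tight and far apart, and the log2 fold change was 0.64 ± 0.21, with an unadjusted p of 0.00251 and a limma adjusted p of 0.871. It ran from 0.61 to 0.70 under every alternative tried. mpp5a, a polarity scaffold, stood at 455 and 431 in the wild-type libraries against 440 and 308 in the mutant libraries.

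Among 16 tested desmosome and plakin genes, which tie keratin filaments to the membrane, the median log2 fold change was -0.06. pkp3a, a desmosomal plakophilin, stood at 238 and 290 in the wild-type libraries against 348 and 325 in the mutant libraries, which gave a log2 fold change of 0.36 ± 0.17, and dsg2.1, a desmosomal cadherin, stood at 624 and 630 in the wild-type libraries against 628 and 489 in the mutant libraries. Among 21 epidermal regulators and adhesion genes the median was -0.05. st14a, a membrane serine protease of the epidermis, stood at 244 and 277 in the wild-type libraries against 206 and 191 in the mutant libraries, which gave a log2 fold change of -0.39 ± 0.19. gata2a, a factor of early ectoderm and of blood precursors, stood at 504 and 524 in the wild-type libraries against 425 and 401 in the mutant libraries, which gave a log2 fold change of -0.32 ± 0.16.

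The enveloping layer and periderm list, 13 genes, had a median log2 fold change of 0.02. icn2, a small calcium-binding protein, stood at 110 and 119 in the wild-type libraries against 98 and 65 in the mutant libraries. pnp5a, a purine nucleoside phosphorylase, stood at 73 and 84 in the wild-type libraries against 124 and 94 in the mutant libraries. Of the 13 genes, 3 were lower and 3 higher in mutants without overlap. Over all genes tested, 16.1% were lower and 13.3% higher in that way. The ionocyte and mucous cell list, 9 genes, had a median of 0.23, and this value depended on single libraries and on the filter. It was 0.03 without mutant replicate 2, 0.42 without mutant replicate 1, -0.09 without wild-type replicate 2 and -0.20 with a minimum mean of 50. Its member atp6v1aa, a subunit of the proton pump, stood at 109 and 119 in the wild-type libraries against 63 and 89 in the mutant libraries, which gave a log2 fold change of -0.60 ± 0.26. Among 16 other intermediate filament genes the median was -0.03. inaa, a neuronal filament gene, stood at 63 and 59 in the wild-type libraries against 88 and 97 in the mutant libraries, and CR848841.1, which is nestin by its current symbol, at 506 and 568 in the wild-type libraries against 498 and 446 in the mutant libraries.

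The labelled tissue was the whole embryo, and markers were checked for 6 of the tissues that could hold these genes. Endothelium, glia, ear and lateral line, where some claudins are known, were not checked. All 11 epidermal markers passed the filter. Their sum was 16970 and 17841 in the wild-type libraries against 18444 and 15126 in the mutant libraries, lowest in mutant replicate 2. Their log2 fold changes had a median of -0.07 and ran from -0.51 for icn2 to 0.11 for epcam. Of these markers, 3 (icn2, dlx3b and grhl1) were lower in mutants without overlap and 0 higher. Over all genes tested, 16.1% were lower and 13.3% higher in that way. The summed markers of other tissues ran from 2111 to 2549 for notochord, 797 to 1006 for endoderm, 3880 to 4418 for neural plate, 1987 to 2576 for hatching gland and 52558 to 63823 for the yolk syncytial layer. 1 marker, mxtx2 of the yolk syncytial layer, was listed at 0 in 3 libraries, and sox32 of the endoderm in 1. 0 of these markers passed the test with limma, and 1, the hatching enzyme gene he1a, had an unadjusted p under 0.05. By summed value, notochord markers were lower in both mutant libraries, 2549 and 2276 in the wild-type libraries against 2182 and 2111 in the mutant libraries. As a share of the library they were 0.0319% and 0.0281% against 0.0265% and 0.0290%, and there the groups overlapped. Endoderm markers were lower in both mutant libraries by sum, 912 and 1006 against 892 and 797, and by share, 0.0114% and 0.0124% against 0.0108% and 0.0110%. By share alone, hatching gland markers were also lower in both, 0.0320% and 0.0315% against 0.0313% and 0.0273%. The same held for yolk syncytial layer markers, 0.794% and 0.788% against 0.771% and 0.723%. These sums do not hold for most markers one by one. By value, 2 of 6 tested endoderm markers, gata5 and foxa2, were lower in mutants without overlap. That was so for 2 of 6 of the hatching gland, 3 of 7 of the yolk syncytial layer and 1 of 7 of the notochord. In each of these lists 0 tested markers were higher without overlap, and the rest overlapped. Shares of epidermal and neural plate markers overlapped between the groups. The part of any of these tissues in the claudin values was not tested.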

How the data were processed

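The deposited table gives 1 value per gene and library, and these values are a score: whole numbers made by the authors from gene counts scaled by library and rounded, as the values themselves show (wild-type replicate 1 skips 7 of the whole numbers from 10 to 100, and wild-type replicate 2 holds 10 of them over 1.6 times as often as their neighbours). Per the submitters' processing notes, the tools named were FastQC, STAR 2.4.0a, featureCounts 1.4.5-p1 and DESeq2, with builds danRer10 and GRCz10; strand and other settings are not given in the sources used here. Here, log2(value + 1) was fitted, for genes whose mean reached 10, with limma-trend (limma 3.58.1, R 4.3.3), group as the only term, over all 4 libraries. With 83.6 prior degrees of freedom, each SE reflects mostly the trend over genes of similar value. Neighbouring members within 100 kb of each other were called a cluster. Tables and figures used Python 3.11.15, pandas 2.3.3 and Matplotlib 3.10.9, and the fit was tested on simulated data.

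Members are rows matching the symbol search, and 47 of the 48 IDs were found in the gene names table. Another 5 keratin-like and 16 claudin-like rows with other symbols were not members. Named in full were, per family, the 8 of highest mean, up to 4 per direction with the smallest p, the 3 highest and 3 lowest in mutant replicate 2, and the 2 nearest the filter, and per partner list the 2 of smallest p; other members are named by their cluster or range. Members and lists were chosen with earlier results of these data known. Alternatives were a pseudocount of 10, no filter, a minimum of 50, limma-voom with trimmed-mean scaling, 3 other scalings, a replicate block and leaving out each library. Sequences were not used here.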

Additional observations from a re-analysis of the deposited data

How the results depend on the processing

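In the keratins, claudins and partner lists, 0 members passed under every alternative that kept all 4 libraries. Leaving out each library gave 0 to 7 called keratins, 0 called claudins and 0 to 3 called partner genes, all of these calls without mutant replicate 1. Over all genes, 8 passed in the planned fit, 5 with limma-voom, 15 when libraries were scaled to their totals of other than mitochondrial, rRNA and haemoglobin genes, and 6 to 274 when each library was left out; genes tied in the remaining pair were not tested there, and the lone library was taken to vary as the other group does. The claudin median log2 fold change was 0.015 without the filter on low values and -0.23 to -0.038 without each library. The partner median ran from -0.088 to 0.023 without each library, and the log2 ratio of the keratin share from -0.088 to -0.0025. On the authors' scaling, chosen after seeing the data, the log2 ratio of the keratin sum was -0.095 and of the claudin sum -0.17; the smaller total of mutant replicate 2 accounts for the change by construction. The causes of the other changes were not tested. Of 460 values of named genes under an alternative, 29 changed sign, none of them past the test, and 7 were called. The replicate block called 9 genes over the whole table and 0 members. Over all genes tested, the deviations of same-numbered libraries had a correlation of 0.009, so no pairing was seen over genes at large. It was 0.54 over the 15 tested keratins and -0.02 over the 12 tested claudins. The keratin value includes krt1-c5 (3 and 10 in wild type, 2 and 29 in mutants) and krt15 (0 and 2, 11 and 27), both near the filter. Replicates of krt94 (15 and 4, 18 and 22) and krt96 (15 and 23, 25 and 15) differed in opposite directions. The correlation without such low values was not computed, so no pairing of the keratins is read from it. Values under 10 are a few reads, and differences there were not detectable at this depth.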
